A study of Mus musculus with 88 samples.

Results

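Transcripts of 6 genes that build and equip the surface of the egg were described in single germinal vesicle (GV) oocytes of the mouse: Zp1, Zp2, Zp3, Astl, Izumo1r and Cd9. They were chosen by name, as the genes of the zona pellucida and of sperm binding at the egg surface, among the 38540 features of the count table. A gene was taken as the feature that carries its name in the supplementary list of the study, or else as the feature on its strand whose span had a Jaccard index of at least 0.3 with the GENCODE M21 gene. This rule matched 5 of the 6 genes. For Izumo1r the best index was 0.297, in a feature with 5.01 CPM, counts scaled to a total of 1000000. Most of the counts over this locus lay in another feature, at 196 CPM, whose span was that of the GENCODE transcript Izumo1r-201. That feature was used for Izumo1r outside the rule, a choice made after the rule had found none.

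The zona pellucida is the glycoprotein coat that a growing oocyte secretes around itself, and in the mouse its filaments consist of the proteins ZP1, ZP2 and ZP3. Sperm bind to ZP2 in this coat. After fertilisation, cortical granules release ovastacin, the protease encoded by Astl, which cleaves ZP2 so that further sperm no longer bind. On the plasma membrane, JUNO, the GPI-anchored product of Izumo1r, is the receptor for IZUMO1 on the sperm, and the tetraspanin CD9 is needed for the membranes to fuse.

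The oocytes came from virgin C57BL/6Babr females that ovulated spontaneously, 42 from young females of 12 weeks and 46 from old females of 44 to 54 weeks, all fully grown GV oocytes freed of granulosa cells. The study assigned 87 of them to a chromatin configuration, either the non-surrounded nucleolus (NSN) form or the surrounded nucleolus (SN) form of more mature oocytes, which gave 30 young NSN, 12 young SN, 37 old NSN and 8 old SN oocytes. The remaining old oocyte, 48A, was left out of the comparisons. The configuration was predicted from transcripts of these same oocytes, so a difference between SN and NSN oocytes is not independent of how they were assigned. The paper holds it likely that this prediction does not match the true chromatin state. It proposes that most old oocytes with an expected SN state have an immature transcriptome like that of NSN oocytes. NSN and SN below name the predicted classes.

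Total counts ranged from 1579196 to 8231046 in young and from 976456 to 5448310 in old oocytes. The labels do not name the female of each oocyte, so each age group counts as 1 sample, with no replicate check and no test. SDs are over oocytes and describe spread, 95% intervals cover counting error only, and the reads carry no molecular identifiers. Levels of a group are its summed counts as CPM, a share of the sequenced RNA. Oocyte numbers fall into 6 runs of consecutive numbers, 3 for each age, whose meaning is not given. Of 10 granulosa markers 9 were matched, and their summed level was 6.14 to 88.3 CPM per oocyte (median 17.3). Kitl made the largest part, at 11.7 CPM over all oocytes, and Inha was at 5.87 CPM, while Foxl2 and Amh were at 0.0325 and 0.0811 CPM. Of 9 markers of stroma, theca and blood 7 were matched, and their sum was at most 7.60 CPM. Col1a1, Hba-a1 and Hbb-bs had 0 counts, which allows up to 0.0122 CPM. The 6 oocyte markers summed to at least 7601 CPM in each oocyte.

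The features of the 6 genes lay, in GRCm38, at chr19:10914289-10921416 on the minus strand for Zp1, chr7:120126532-120145290 on the minus strand for Zp2 and chr5:135978768-135990412 on the plus strand for Zp3. Astl lay at chr2:127341602-127357650 on the plus strand, Izumo1r at chr9:14900023-14903932 on the minus strand and Cd9 at chr6:125460258-125494815 on the minus strand. Each is a whole gene model with its exons, as assembled from oocyte RNA. Whether the counting used strand is not given, so reads from a gene and from an overlapping opposite-strand feature cannot be told apart. Zp3, Zp2 and Astl had 1 such feature each, at 37.6, 1.68 and 3.34 CPM, and the other genes had none.

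RefSeq promoters (GRCm38.p6) were at hand for 4 of the 6 genes. The 250 bases before the start are shown 5′ to 3′ for Zp3, Astl and Cd9, 3 genes whose levels were higher in SN than in NSN oocytes, and for Izumo1r, whose level was not. Capitals mark each match to CANNTG, the E-box, which reads the same on both strands. The windows are chr5:135979855-135980104 on the plus strand for Zp3, chr2:127341386-127341635 on the plus strand for Astl, chr6:125494761-125495010 on the minus strand for Cd9 and chr9:14903768-14904017 on the minus strand for Izumo1r. For Astl the start that lies 34 bases from the start of its feature was taken. The window of its other start, at 127338639, held 0 E-boxes. The Zp3 start lies 1337 bases inside its feature, so the Zp3 window lies within the counted feature. The Izumo1r start lies 165 bases and the Cd9 start 55 bases inside their features.
Zp3: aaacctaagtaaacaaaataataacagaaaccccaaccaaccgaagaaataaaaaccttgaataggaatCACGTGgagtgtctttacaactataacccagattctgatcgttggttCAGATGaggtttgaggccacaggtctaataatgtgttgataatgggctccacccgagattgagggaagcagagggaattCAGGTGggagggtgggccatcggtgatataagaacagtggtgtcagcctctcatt
Astl: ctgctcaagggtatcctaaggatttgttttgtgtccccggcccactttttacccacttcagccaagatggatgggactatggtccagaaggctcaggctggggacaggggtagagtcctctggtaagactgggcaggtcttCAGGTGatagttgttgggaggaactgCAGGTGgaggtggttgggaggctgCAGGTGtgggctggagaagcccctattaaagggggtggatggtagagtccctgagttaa
Cd9: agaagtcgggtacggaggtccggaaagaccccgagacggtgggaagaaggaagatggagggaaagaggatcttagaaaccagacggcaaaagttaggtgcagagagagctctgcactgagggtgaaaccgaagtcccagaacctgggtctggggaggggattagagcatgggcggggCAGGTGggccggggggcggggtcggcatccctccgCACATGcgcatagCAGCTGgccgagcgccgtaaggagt
Izumo1r: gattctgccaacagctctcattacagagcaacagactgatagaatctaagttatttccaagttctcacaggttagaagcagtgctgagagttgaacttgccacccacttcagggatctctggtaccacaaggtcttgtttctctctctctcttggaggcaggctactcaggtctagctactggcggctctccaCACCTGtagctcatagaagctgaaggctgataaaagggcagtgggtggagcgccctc
Zp3 held 3 E-boxes in this window, the first of them CACGTG, 181 bases before the start. Astl held 3, all reading CAGGTG, that begin 109, 83 and 59 bases before the start. Cd9 held 3 and Izumo1r held 1. Over 32851 promoter windows of this length, 66.2% held at least 1 E-box and 12.2% at least 3. TATAA, searched on both strands, stood in the Zp3 window alone among these 4, at 160 and 29 bases before the start, and in 22.8% of all windows, and overlapped no E-box. A match describes the letters and not a site in use.

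All 6 genes had counts in each of the 87 oocytes, and the zona genes were among the most abundant transcripts of the cell. By summed counts Zp2 ranked 11 of 32803 features with a count, Zp3 37, Zp1 59, Astl 171, Izumo1r 1057 and Cd9 1899. Together the 6 features took 0.742% of all counts in young and 0.672% in old oocytes. By configuration the share was 0.688% in young NSN, 0.612% in old NSN, 0.875% in young SN and 0.952% in old SN oocytes.

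Between genes, levels were compared per kilobase of exon. On this scale Zp3 stood at 1280 CPM per kb, Zp2 at 1158, Zp1 at 649, Astl at 253, Izumo1r at 84.3 and Cd9 at 59.8. The length used for Izumo1r was 2.32 kb, while its feature had an index of 0.216 with the GENCODE gene. The order of Izumo1r with Astl and Cd9 therefore depends on the length chosen. Zp3 and Zp2 could not be put in a fixed order, since Zp3 was above Zp2 in 66 of 87 oocytes. Zp3 was the higher in 31 of 37 old NSN and 2 of 8 old SN oocytes, and in 25 of 30 young NSN and 8 of 12 young SN oocytes. Zp2 was above Zp1 in 86 and Zp1 above Astl in all 87 oocytes. Astl was above Izumo1r in 84 oocytes. Izumo1r was above Cd9 in 74, but in only 3 of the 8 old SN oocytes. Of the summed level per kb of the zona genes, Zp2 took 37.7% in young NSN, 35.7% in old NSN, 38.7% in young SN and 40.3% in old SN oocytes.

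**Figure D1:**
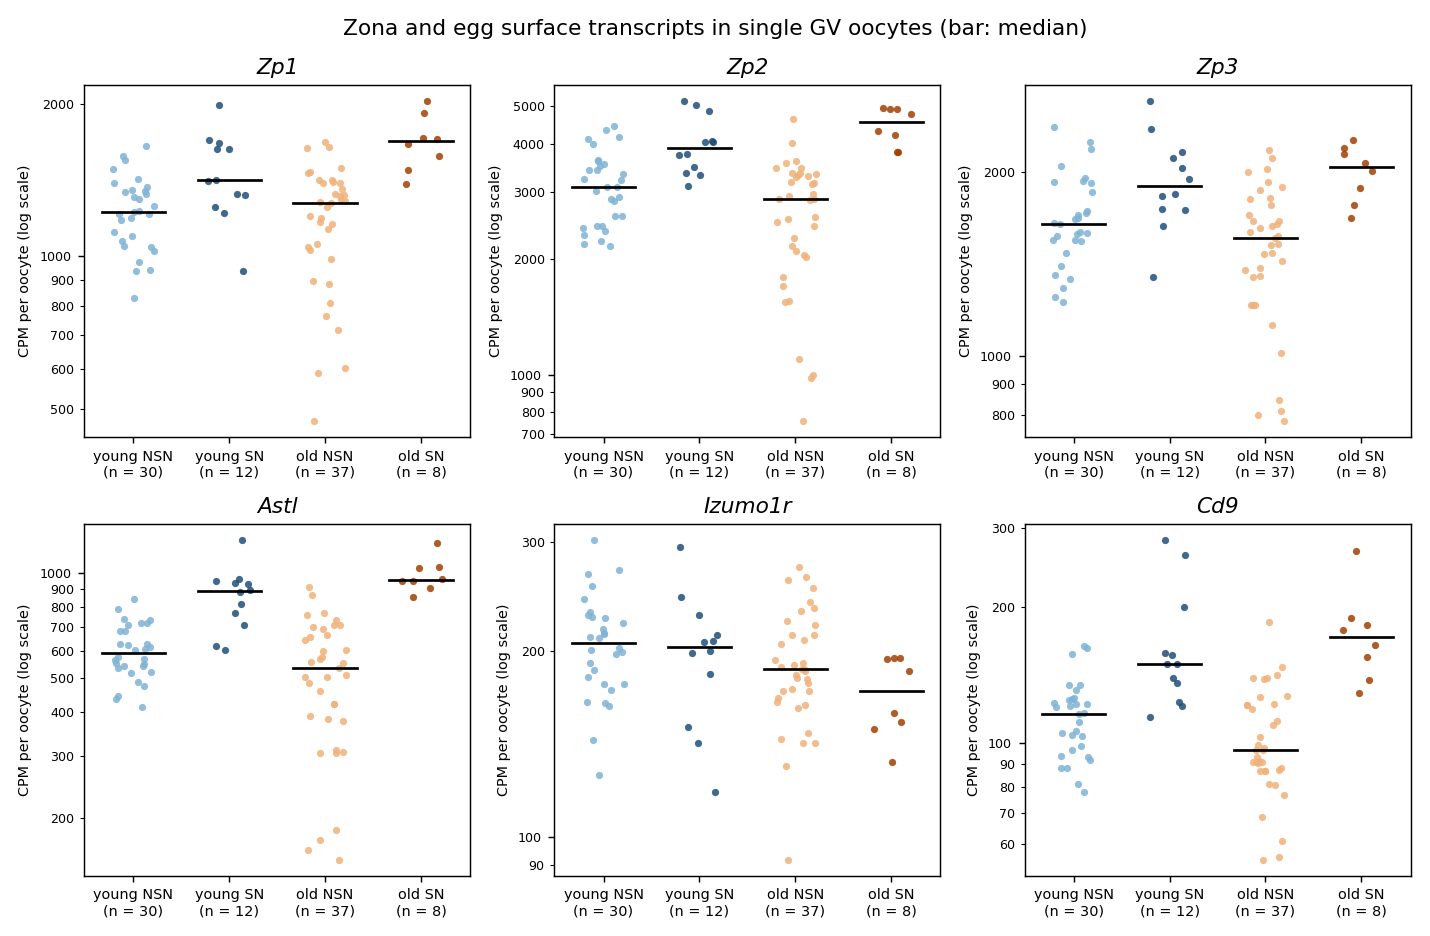
CPM of each gene in single oocytes on log axes, 1 point per oocyte, grouped by age and predicted configuration, with black bars at the medians. The old NSN oocytes reach far below the lowest young NSN oocytes for Zp1, Zp2, Zp3 and Astl. For Izumo1r the medians of the 4 groups lie between 172 CPM in old SN and 206 CPM in young NSN oocytes.

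The levels per oocyte follow by role. Zp2, which carries the sperm-binding domain of the coat, ranged in young NSN oocytes from 2162 to 4440 CPM (median 3090) and in old NSN oocytes from 757 to 4643 CPM (median 2866). In SN oocytes it ranged from 3105 to 5170 CPM (median 3899) in young and from 3804 to 4947 CPM (median 4547) in old. The 4 groups overlapped, but 11 of the 37 old NSN oocytes lay below the lowest young NSN oocyte.

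Zp3, which copolymerises with ZP2 in the coat, ranged from 1224 to 2372 CPM (median 1647) in young NSN and from 783 to 2171 CPM (median 1558) in old NSN oocytes. In SN oocytes it ranged from 1348 to 2615 CPM (median 1896) in young and from 1682 to 2256 CPM (median 2041) in old. Of the old NSN oocytes 9 lay below all young NSN oocytes.

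Zp1, which cross-links the filaments, ranged from 830 to 1649 CPM (median 1224) in young NSN and from 474 to 1680 CPM (median 1275) in old NSN oocytes. The young SN oocytes ranged from 935 to 1983 CPM (median 1412) and the old SN oocytes from 1387 to 2024 CPM (median 1685). Here the old NSN median was not below the young one, although 6 old NSN oocytes lay below all young NSN oocytes.

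Astl ranged from 415 to 842 CPM (median 590) in young NSN and from 152 to 913 CPM (median 535) in old NSN oocytes. In SN oocytes it ranged from 602 to 1245 CPM (median 889) in young and from 855 to 1222 CPM (median 957) in old. Over all 87 oocytes the highest value was 8.22 times the lowest for Astl, the widest range of the 6 genes, against 6.83 times for Zp2 and 3.29 times for Izumo1r.

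Izumo1r ranged from 126 to 302 CPM (median 206) in young NSN and from 91.9 to 273 CPM (median 187) in old NSN oocytes. In SN oocytes it ranged from 118 to 294 CPM (median 203) in young and from 132 to 195 CPM (median 172) in old. All 8 old SN oocytes lay below the young SN median, within the young SN range.

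Cd9 ranged from 78.0 to 164 CPM (median 116) in young NSN and from 55.2 to 185 CPM (median 96.5) in old NSN oocytes. In SN oocytes it ranged from 115 to 283 CPM (median 150.0) in young and from 129 to 267 CPM (median 172) in old. The fewest counts of Cd9 in an oocyte were 94. CD9 is made by many cell types, granulosa cells among them. The rank correlation of Cd9 with the summed granulosa markers was 0.016 over the 87 oocytes, -0.13 in young NSN, -0.35 in old NSN, 0.24 in young SN and 0.29 in old SN oocytes. Without Kitl, the largest part of the sum, it was -0.19 over the 87 oocytes, -0.19 in young NSN and -0.41 in old NSN oocytes. In young SN and old SN oocytes it was then 0.11 and 0.26. The part of granulosa RNA in the Cd9 values was not tested.

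To ask whether these transcripts differ with age, the summed levels of 45 old and 42 young oocytes were compared. All 6 genes were lower in old oocytes, by small amounts. The log2 ratio was -0.18 for Zp2 (95% interval -0.19 to -0.18), -0.17 for Astl, -0.14 for Zp3, -0.14 for Izumo1r, -0.13 for Cd9 and -0.032 for Zp1. The median of the 6 was -0.14, beside -0.0044 over the 9397 features compared, of which the middle 80% lay between -0.17 and 0.14. None of the 6 was past a log2 limit of 0.32 in either direction, which 2.09% of the features passed as lower in old oocytes and 0.458% as higher. For Zp2 16 of 45 old oocytes lay above the young median and for Zp1 23 of 45, so the ages overlapped throughout. Without the old run 25 to 31 the ratio was -0.093 for Zp2, -0.068 for Zp3, -0.10 for Astl and 0.057 for Zp1, and without the young run 17 to 24 it was -0.063 for Astl. Without the old run 41 to 48 Astl was at -0.34, past the limit. With oocyte 48A included it was 0.036 for Cd9. Taken run by run, the 3 old runs lay below the 3 young runs for Zp2 (2531 to 3133 against 3180 to 3484 CPM) and Zp3 (1420 to 1702 against 1741 to 1809 CPM), and overlapped them for the other 4 genes. Within NSN oocytes the runs of the ages overlapped for Zp2 as well (2009 to 3027 against 2792 to 3421 CPM) and for Zp3. They also overlapped within SN oocytes, and SN oocytes were 12 of 42 in young and 8 of 45 in old. The share of all features whose runs separate by age was not computed.

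Within NSN oocytes the log2 ratios, old over young, were -0.24 for Zp2, -0.19 for Astl, -0.16 for Cd9, -0.14 for Zp3, -0.11 for Izumo1r and -0.049 for Zp1. None of the 6 was past the limit of 0.32, as were 2.64% of 9324 features in the lower and 0.579% in the higher direction. The Zp1 ratio turned to 0.058 when medians over oocytes were compared, and to 0.061 without the old run 25 to 31. For Zp2 the ratio was -0.089 without that run, in which Zp2 stood at 2009 CPM in NSN oocytes against 2811 and 3027 CPM in the other old runs. Zp2 was past the limit without the old run 9 to 16, at -0.33. Astl was past it without the old run 41 to 48, at -0.34, and with the mean of log2(CPM + 1), at -0.32. Among oocytes with names that end in A, Zp2 was at -0.17 and Zp1 at 0.013. Among those with no letter, Zp2 was at -0.36, past the limit, and Zp1 at -0.15. Within SN oocytes the ratios were 0.19 for Zp1, 0.18 for Cd9, 0.16 for Zp2, 0.15 for Astl, 0.0031 for Zp3 and -0.27 for Izumo1r. Again none passed the limit, with 7.12% of 9703 features higher and 5.23% lower. Young oocyte 24A held 21.5% of the counts of the young SN group, and the Cd9 ratio was 0.075 without it. Without the young run 17 to 24 it was -0.027. The Zp3 ratio took either sign as runs were left out, from -0.12 to 0.17. Without the young run 33 to 39 Izumo1r at -0.42 and Cd9 at 0.37 were past the limit. Astl at 0.32 was past it without the young run 17 to 24, and Izumo1r at -0.36 without the old run 41 to 48. Among the 3 old and 7 young SN oocytes with names in A, Izumo1r was at -0.49, past the limit, against -0.19 in the others.

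**Figure D2:**
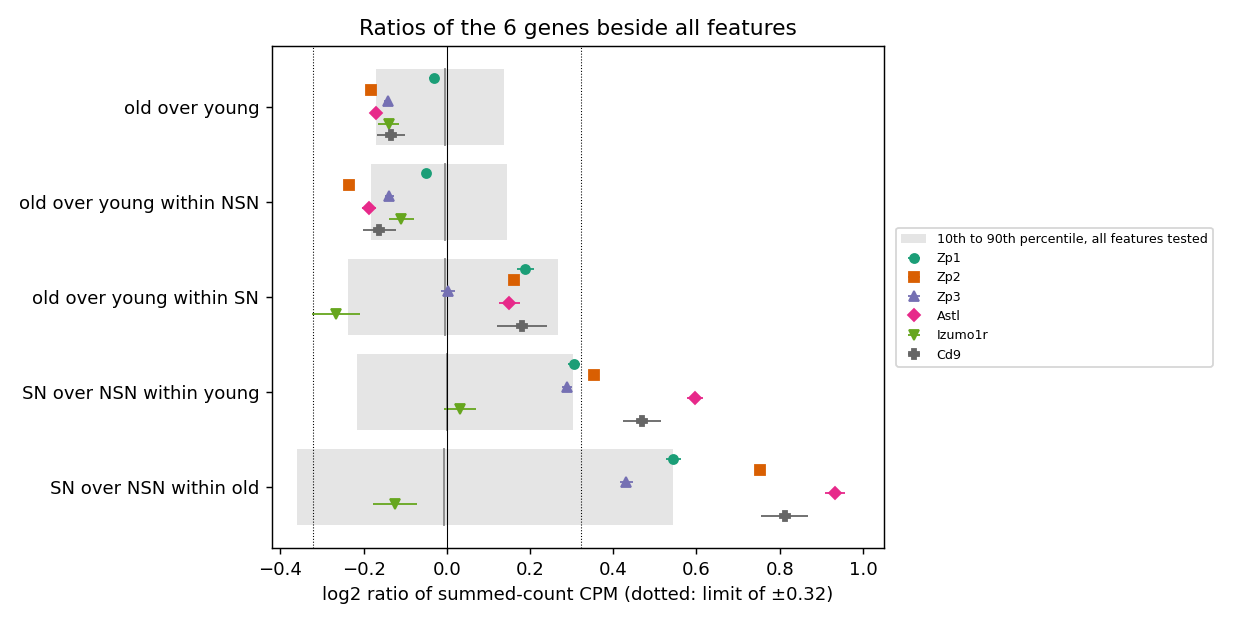
Log2 ratios of summed-count CPM for the 6 genes in 5 comparisons, with 95% counting intervals, over grey bars from the 10th to the 90th percentile of all features compared. In both comparisons of SN with NSN oocytes Zp2, Astl and Cd9 lie to the right of the dotted limit of 0.32 and Izumo1r lies near 0.

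The larger differences followed the predicted configuration. In young oocytes the log2 ratio of SN over NSN was 0.60 for Astl (95% interval 0.58 to 0.62), 0.47 for Cd9, 0.35 for Zp2, 0.31 for Zp1, 0.29 for Zp3 and 0.032 for Izumo1r. Astl was thus 1.51-fold, Cd9 1.38-fold and Zp2 1.28-fold higher, which put 3 of the 6 genes past the log2 limit of 0.32, beside 9.14% of 9586 features higher and 2.97% lower. All 12 young SN oocytes lay above the young NSN median for Zp2 and Astl, 11 for Cd9, 10 for Zp1 and for Zp3, and 6 for Izumo1r. The ranges overlapped for each gene, with 7 of the 12 SN oocytes above the highest NSN oocyte for Astl and 3 for Zp2. Without the young run 17 to 24 the log2 ratio was 0.21 for Zp2, no longer past the limit, 0.14 for Zp1 and 0.070 for Zp3, while Astl at 0.44 and Cd9 at 0.73 were still past it. Zp1 and Zp3 were past it as well without the young run 33 to 39, at 0.42 and 0.43, and without the young run 1 to 7, at 0.34 and 0.33.

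In old oocytes the log2 ratio of SN over NSN was 0.93 for Astl, 0.81 for Cd9, 0.75 for Zp2, 0.54 for Zp1, 0.43 for Zp3 and -0.12 for Izumo1r. The folds were 1.91 for Astl, 1.76 for Cd9, 1.68 for Zp2, 1.46 for Zp1 and 1.35 for Zp3. Hence 5 of the 6 genes were past the limit, beside 19.2% of 9747 features higher and 13% lower. The median of the 6 was 0.65, against -0.0069 over all features. All 8 old SN oocytes lay above the old NSN median for these 5 genes, and 3 of 8 for Izumo1r. With any 1 old run left out, the 5 genes were still past the limit, the lowest being Zp3 at 0.34. Above the highest of the 37 old NSN oocytes lay 6 SN oocytes for Astl and 4 for Zp2. The comparisons share oocytes, since the old NSN and SN groups also enter the comparisons of age.

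Within the runs, SN oocytes were higher than NSN oocytes of the same run in 6 of 6 runs for Zp1, Zp2, Zp3, Astl and Cd9, and in 3 of 6 for Izumo1r. The log2 ratio within runs lay between 0.33 and 1.28 for Zp2, 0.15 and 1.14 for Astl, 0.16 and 0.80 for Cd9, 0.11 and 0.77 for Zp1 and 0.041 and 0.67 for Zp3. For Izumo1r it lay between -0.29 and 0.26. A run held 1 to 6 SN oocytes, so single runs rest on few cells. The share of all features that were higher in SN oocytes in every run was not computed. The configuration was also predicted from transcripts of these oocytes. Oocyte names also end in A or in no letter, again with no meaning given. Both sets had a ratio of SN over NSN above 0 for the 5 genes at either age, and it was the smaller in the set with A, as for Zp1 in old oocytes with 0.36 against 0.74. For Izumo1r the signs differed at both ages, with -0.11 in the set with A and 0.17 in the other in young oocytes, and with -0.45 and 0.081 in old oocytes. Leaving out a run likewise turned Izumo1r in young oocytes, from 0.032 to -0.21 without the run 17 to 24.

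**Figure D3:**
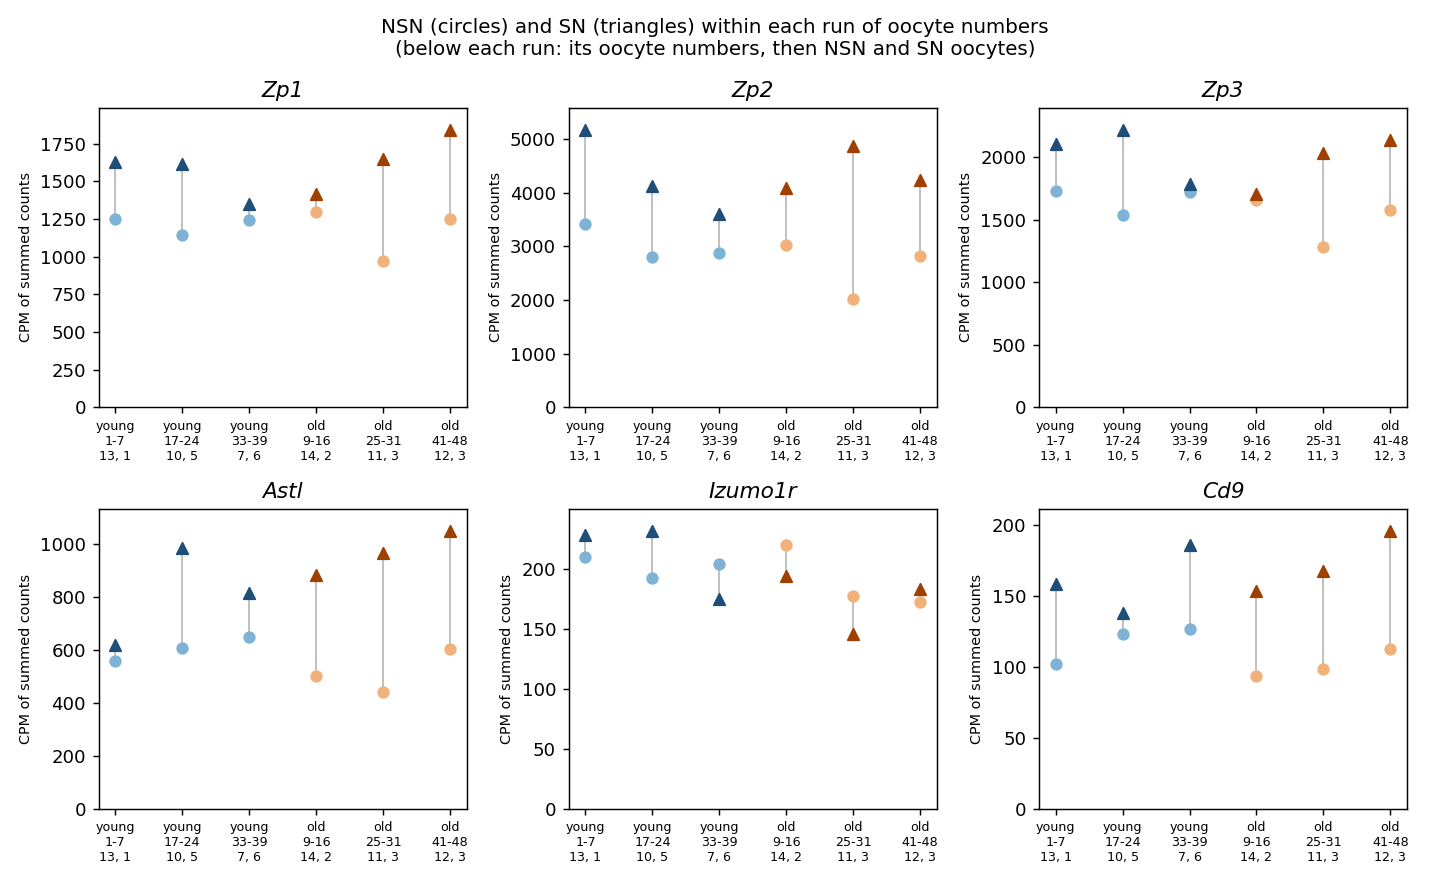
CPM of summed counts in NSN oocytes (circles) and SN oocytes (triangles) of each run of oocyte numbers, joined by a line, with young runs in blue and old runs in orange. The triangles lie above the circles in all 6 runs for 5 genes, and for Izumo1r in 3 of 6 runs.

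The spread over oocytes was wider in old than in young oocytes for all 6 genes, as it was for 80.7% of 12408 features. The coefficient of variation was 25.8% in young and 43.1% in old oocytes for Astl, 23.2% and 37.1% for Zp2, 18.9% and 27.1% for Zp1 and 18.4% and 24.4% for Zp3. For Cd9 it was 31.8% and 35.7%, and for Izumo1r 20.0% and 20.3%. The ratio of the 2 coefficients was thus 1.67 for Astl and 1.60 for Zp2, beside a median of 1.17 over all features, and 1.02 for Izumo1r. The log2 of this ratio for Izumo1r, 0.025, turned to -0.0068 with median of ratios factors, to -0.043 after thinning and to -0.15 within runs.

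Within NSN oocytes the coefficient of Astl was 17.8% in young and 38.2% in old, a ratio of 2.14 beside a median of 1.19 over all features. All 6 genes were more variable in old NSN than in young NSN oocytes, as were 81.7% of features. In SN oocytes it was the other way for all 6, where 44% of features were more variable in old. The coefficients there were 10.2% to 24.2% in the 8 old and 17.4% to 32.7% in the 12 young oocytes. Among 4328 features of at least 50 CPM, 97.6% had a lower coefficient than Astl in old NSN oocytes and 96.1% a lower one than Zp2. For Izumo1r the share was 68.2%.

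The wider spread of old NSN oocytes lay mainly below the young range. Of 37 old NSN oocytes, 14 were below the lowest young NSN oocyte for at least 1 of Zp1, Zp2, Zp3 and Astl, and 5 were below it for all 4. For Zp2 and for Astl 11 oocytes each were below it, of which 9 were the same. For Cd9 5 oocytes were below it and for Izumo1r 1. The 11 oocytes for Zp2 had 1365164 to 3821665 counts, within the depths of the group, and 6 of the 11 NSN oocytes of the old run 25 to 31 were among them, against 3 of 14 and 2 of 12 in the other runs. The lowest of 30 young values sets this limit, so the numbers depend on 1 young oocyte for each gene. By name ending, 0 of 19 old NSN oocytes with A and 6 of 18 without a letter were below for Zp1. For Zp2 and for Astl it was 4 with A and 7 without, and for Zp3 2 and 7. For Cd9 it was 2 and 3, and for Izumo1r 1 and 0. What the name ending stands for was not tested. Over old NSN oocytes the granulosa markers had a rank correlation of -0.53 with Zp2 and of -0.35 with Cd9, and the oocyte with the highest marker sum had 978 CPM of Zp2. The part of granulosa RNA in these values was not tested. In young NSN oocytes the rank correlation of the granulosa sum with Zp2 was -0.34. Without Kitl the values with Zp2 were -0.64 in old NSN and -0.28 in young NSN oocytes.

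The ratio of zona transcripts within an oocyte does not depend on the scaling of that oocyte. Zp1 over Zp3 was nearly fixed, with a median CPM ratio of 0.742 in young and 0.798 in old oocytes and an SD of 0.10 and 0.14 on the log2 scale. Its median was higher in old oocytes in both configurations, 0.781 against 0.739 in NSN and 0.831 against 0.752 in SN. Zp2 over Zp3 varied more, with an SD of 0.23 in young and 0.34 in old oocytes. Its median was 1.79 in young NSN, 1.75 in old NSN, 1.98 in young SN and 2.18 in old SN oocytes. The median of Zp2 over Zp1 was 2.54 in young oocytes and 2.25 in old oocytes. Across the egg surface, Zp2 over Izumo1r had a median of 15.0 in young NSN, 14.9 in old NSN, 20.0 in young SN and 26.9 in old SN oocytes.

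**Figure D4:**
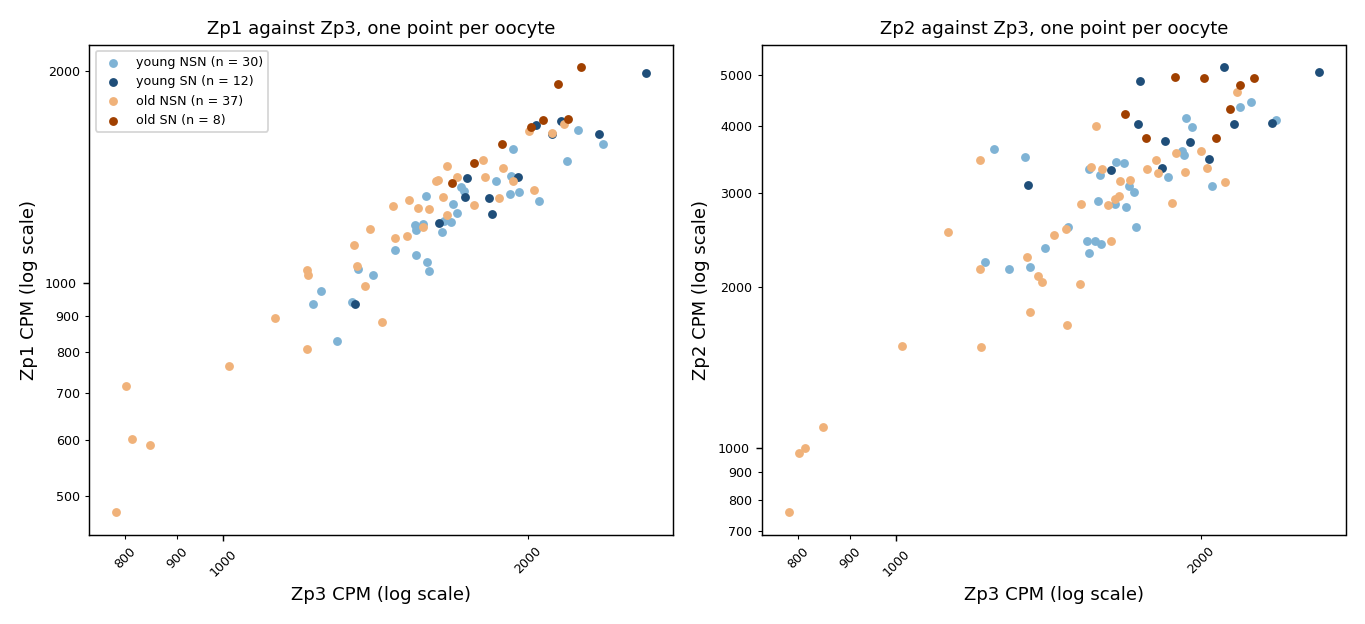
Zp1 (left) and Zp2 (right) against Zp3 in single oocytes, in CPM on log axes, coloured by age and configuration. Zp1 follows Zp3 along a narrow band down to the lowest old NSN oocytes, and Zp2 scatters more widely around its band.

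Rank correlations over oocytes were computed as a description, since the oocytes share library preparation and differ in depth. Over the 87 oocytes rho was 0.92 for Zp1 with Zp3, 0.79 for Zp2 with Zp3, 0.78 for Zp3 with Astl and 0.77 for Zp1 with Zp2. Cd9 went with Astl (0.66) and Zp2 (0.55), and Izumo1r with Zp3 (0.53) and Zp1 (0.46) but not with Cd9 (-0.17). Within NSN oocytes Zp1 and Zp3 stayed at 0.92 at either age. Cd9 differed most between ages: with Zp1, Zp2, Zp3 and Astl rho was -0.22, -0.091, -0.23 and 0.0024 in young NSN oocytes, and 0.48, 0.52, 0.50 and 0.66 in old NSN oocytes. Izumo1r with Zp3 was 0.78 in young NSN and 0.65 in old NSN oocytes. In young NSN oocytes the CPM of Zp1, Zp3 and Izumo1r also went with the total count of the oocyte, with rho of -0.48, -0.48 and -0.45, and in old NSN oocytes less so, with -0.10, -0.11 and -0.20. In young SN oocytes rho with the total count was 0.32 for Zp1, 0.43 for Zp3, 0.71 for Astl and 0.27 for Izumo1r. In old SN oocytes it was 0.76, 0.71, 0.74 and 0.26. For Zp2 it was -0.13 in young SN and -0.071 in old SN, and for Cd9 -0.22 and 0.38. Differences between these correlations were not tested.

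**Figure D5:**
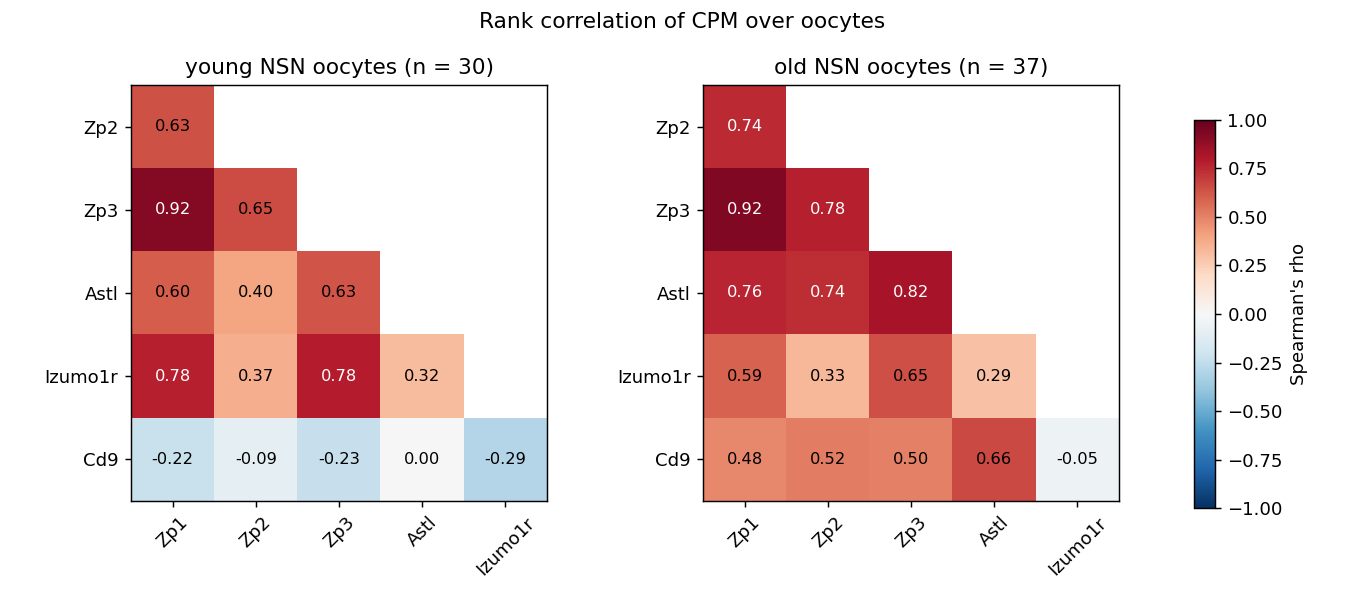
Spearman's rho of CPM between the 6 genes over 30 young NSN oocytes (left) and 37 old NSN oocytes (right), from blue for negative to red for positive values. The bottom row, Cd9, is near or below 0 with the zona genes and Astl in young oocytes and between 0.48 and 0.66 in old oocytes.

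Among 4320 features with a mean of at least 50 CPM, the 3 most like each gene over the 87 oocytes were named. For Zp1 they were Zp3 (rho 0.92), Bphl, which encodes a serine hydrolase (0.83), and Gdf9, a growth factor secreted by the oocyte (0.81). For Zp3 they were Zp1, Bphl (0.88) and Padi6, a protein of the oocyte cytoplasmic lattices (0.84). For Zp2 they were C130026I21Rik (0.85), the zinc finger gene Zfp473 (0.85) and Bmp15, the oocyte growth factor related to Gdf9 (0.84). For Astl they were Gdf9 (0.91), Serpinc1, which encodes antithrombin (0.90), and Mtmr14, a phosphoinositide phosphatase (0.90). For these 4 genes the 90th percentile of rho over all features was 0.42 to 0.48.

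The membrane genes had less close neighbours. For Izumo1r they were the RNA-binding protein gene Rbpms2 (0.71), the ATP synthase subunit gene Atp5a1 (0.71) and the F-box gene Fbxo34 (0.70). For Cd9 they were Hsph1, a heat shock protein gene (0.75), the unnamed feature TCONS_00090226 (0.75) and the translation initiation factor gene Eif4g1 (0.74). Within young NSN oocytes the value for Hsph1 was 0.37 and for Eif4g1 0.33.

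Transcription factors of the oocyte, some of which act on zona genes, were followed in a list of 7 genes, of which 6 were matched. Nobox, an oocyte homeobox factor, stood at 355 CPM in young NSN and 454 CPM in young SN oocytes, and at 337 and 505 CPM in old NSN and SN oocytes. Taf4b, a TFIID subunit of the germ line, stood at 33.6 and 45.7 CPM in young and at 30.4 and 61.3 CPM in old NSN and SN oocytes. Tbpl2, the oocyte form of the TATA-binding protein, stood at 12.7 and 16.7 CPM in young and at 13.7 and 21.5 CPM in old. These 3 were past the limit in SN over NSN at either age, of 4 compared in young and 5 in old oocytes, beside 9.14% and 19.2% of all features that were higher in SN. Lhx8 had log2 ratios of 0.10 and 0.01, and Sohlh2 had -0.65 in old oocytes, at 11.6 and 7.38 CPM. Over all oocytes Sohlh2 was past the limit between ages, 1 of 5 compared beside 0.458% of all features, with a log2 ratio of 0.35, at 8.55 CPM in young and 10.9 CPM in old oocytes. Within NSN it was the 1 of 5 past it, with 0.36 beside 0.579% of all features. Within SN Tbpl2 with 0.36 and Taf4b with 0.42 were past it, 2 of 4 compared beside 7.12% of all features. Figla had no feature of its own by the rule.

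Of 11 partners of CD9 and egg integrins 10 were matched and 5 had at least 10 CPM. Itga6, the alpha 6 integrin, stood at 211 CPM in NSN oocytes of either age and at 160.1 and 146 CPM in young and old SN oocytes. Its log2 ratios of SN over NSN were -0.40 and -0.53. Itga9 had -0.20 and -0.40. Itgb1 and Itgb3, the beta 1 and beta 3 integrins, both had 0.40 in old oocytes and -0.01 and 0.32 in young ones. The tetraspanin Cd151 stood at 49.6 CPM over all oocytes and Cd81, a related tetraspanin, at 2.76 CPM. Between ages none of the 5 was past the limit over all oocytes or within NSN, and within SN 1 of 5 was higher in old oocytes, Itgb1 with 0.39, beside 7.12% of all features. In old oocytes 2 of 5 were higher and 2 lower in SN, beside 19.2% and 13% of all features, with a list median of 0.23.

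Of 10 genes of cortical granule exocytosis 8 were matched and 6 had at least 10 CPM, led by the ATPase gene Nsf at 362 CPM. None was past the limit between ages over all oocytes or within NSN, and within SN 1 of 6 was lower in old oocytes, the calcium sensor gene Syt1 with -0.56, beside 5.23% of all features. In SN over NSN 0 of 6 were past it in young and 1 of 6 in old oocytes, beside 13% of all features that were lower, again Syt1 with -0.53, at 52.0 and 35.9 CPM. Its neighbours in the list, Rab27a and Snap23, had 0.29 and -0.26. The list medians were 0.05 in young and -0.07 in old, beside 0.60 and 0.93 for the single gene Astl, whose product these granules carry.

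Of 16 genes that make or attach the GPI anchor, which holds JUNO to the membrane, 14 were matched and 11 had at least 10 CPM. None was past the limit between ages over all oocytes, where Pigf had a log2 ratio of 0.19 and Pigo of -0.29, or within NSN. Within SN 1 of 11 was lower in old oocytes, Pigo with -0.40, beside 5.23% of all features. Pigs, a subunit of the transamidase that attaches the anchor, was higher in SN oocytes, by 0.49 in young and 0.62 in old, and Gpaa1 of the same complex by 0.33 in old. The counts past the limit as higher were thus 1 of 11 in young and 2 of 11 in old oocytes, beside 9.14% and 19.2% of all features. Pigf was lower in SN, with -0.28 in young and -0.59 in old oocytes, at 288 and 191 CPM in old NSN and SN. The list medians of -0.02 and -0.14 lay near the 0.0012 and -0.0069 of all features in young and old oocytes.

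Other genes with a zona pellucida domain were much lower. Of 10 named 5 were matched, and their summed level was 49.8 to 97.3 CPM per oocyte, most of it from Tgfbr3, the type III receptor of TGF-beta, at 50.5 CPM. Genes of the sperm side of fusion were meant as a negative control, and the 1 of 7 that was matched, Dcst1, had 1 count in 87 oocytes. The features were assembled from oocyte RNA and the other genes had no match. This control therefore cannot show that their transcripts are absent. Of the 6 oocyte markers Gdf9, Bmp15 and Kit had log2 ratios of SN over NSN in old oocytes of 0.47, 0.34 and 0.44, Ddx4 had 1.42, and Oosp1 and Mos had -0.76 and -0.40, so that abundant oocyte transcripts other than the zona genes lay on both sides of 0.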

How the data were processed

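The RNA fraction of scM&T-seq libraries from 88 single GV oocytes was used, captured on oligo-dT beads and amplified by Smart-seq2. The authors trimmed the reads with Trim Galore, aligned them to GRCm38 with HiSat2 and counted primary alignments over an oocyte transcriptome. They deposited raw counts per feature and oocyte, without normalisation. The counting tool is not given in the sources used here. CPM were computed here from the summed counts of a group.

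The 6 genes and the gene lists were chosen with earlier results of these data known. Age came from the labels and configuration from the study's supplement. Totals equalled those of the supplement in 87 of 88 oocytes. Features compared had at least 10 CPM in a group and at least 3 counts in both. Coefficients of variation used features with a mean count of at least 10. Genes named are the 6, those of the lists and the 3 features most like each of the 6.

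Poisson and binomial intervals were exact. TMM factors came from edgeR 4.0.16 in R 4.3.3, the rest from Python 3.11.15 (pandas 2.3.3, numpy 2.4.6, scipy 1.17.1). Calculations were tested on simulated data. Alternatives were other scaling, medians or mean logs over oocytes, thinning to 900000 counts, and oocytes or runs left out. A log2 value was taken as moved beyond 0.1. The methylation libraries were not used here.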

Additional observations from a re-analysis of the deposited data

Results flagged for a closer look

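Among the 8 old SN oocytes, 1 stood apart for Cd9 at 267 CPM, with the next at 189.8 CPM. The gap between them is a large share of the range of the group. The same look was taken at each of the 6 genes in this group, the only group of 4 to 10 oocytes, and chance alone marks about 1 in 20 such groups. Old oocyte 48A, which has no configuration and is in no comparison, lay above all 87 other oocytes for 4 genes. It had 586 CPM of Cd9 against at most 283 CPM, 3812 CPM of Zp3 against at most 2615 CPM, 2228 CPM of Zp1 against at most 2024 CPM and 330.0 CPM of Izumo1r against at most 302 CPM.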

How the results depend on the processing

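TMM factors, median of ratios factors, totals without the 6 genes, and leaving out old oocyte 15, whose total differs from that of the supplement, moved no log2 ratio of a level by over 0.1. With medians over oocytes, old over young was -0.24 for Cd9, within NSN 0.058 for Zp1, -0.11 for Zp2 and -0.27 for Cd9, within SN 0.11 for Zp3, and SN over NSN was 0.21 for Zp1 and 0.37 for Cd9 in young and 0.40 for Zp1 in old oocytes. With the mean of log2(CPM + 1), Astl was -0.28 in old over young and -0.32 within NSN, and SN over NSN in old oocytes was 0.86 for Zp2 and 1.06 for Astl. After thinning, Cd9 was 0.053 in old over young within SN and 0.57 in SN over NSN in young oocytes, and without young oocyte 24A, chosen after seeing the data, 0.075 and 0.57. With all 88 oocytes Cd9 was 0.036 in old over young. The cause of these shifts was not tested.

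With 1 run left out at a time, old over young was -0.34 to -0.063 for Astl and -0.27 to -0.020 for Cd9. Within NSN it was -0.11 to 0.061 for Zp1, -0.33 to -0.089 for Zp2, -0.34 to -0.087 for Astl, -0.22 to -0.034 for Izumo1r and -0.29 to -0.11 for Cd9. Within SN it was 0.068 to 0.32 for Zp1, -0.12 to 0.17 for Zp3, 0.057 to 0.32 for Astl, -0.42 to -0.055 for Izumo1r and -0.027 to 0.37 for Cd9. SN over NSN in young was 0.14 to 0.42 for Zp1, 0.21 to 0.47 for Zp2, 0.070 to 0.43 for Zp3, 0.44 to 0.73 for Astl, -0.21 to 0.19 for Izumo1r and 0.33 to 0.73 for Cd9. In old it was 0.46 to 0.65 for Zp1, 0.53 to 0.88 for Zp2, 0.34 to 0.53 for Zp3 and -0.30 to -0.050 for Izumo1r.

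The log2 ratio of the coefficients of variation, old over young, was 0.52 for Zp1, 0.41 for Zp3, 0.74 for Astl, 0.025 for Izumo1r and 0.17 for Cd9. With all 88 oocytes it was 0.74 for Zp3, 0.18 for Izumo1r and 1.00 for Cd9. In NSN oocytes it was 0.65 for Zp1, 1.10 for Astl, 0.15 for Izumo1r and 0.48 for Cd9, and within runs 0.86 for Astl, -0.15 for Izumo1r and 0.30 for Cd9. Numbers of features past the limit depend on the limit and the filter. Higher and lower in old over young were 43 and 196, 2866 and 5005 without the filter on CPM, and 3 and 34 at 1.5-fold. Within NSN they were 54 and 246, 2753 and 4956, and 3 and 46, and within SN 691 and 507, 4663 and 3840, and 158 and 73. For SN over NSN they were 876 and 285, 6421 and 2926, and 248 and 17 in young, and 1875 and 1271, 7308 and 4047, and 863 and 180 in old oocytes. No paired analysis was possible because the age groups share no oocyte numbers and no test was run. Each of the 6 genes had at least 94 counts in every oocyte, and thinning to equal depth moved the Cd9 values given above.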

Other observations

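In oocyte 48A, taken to be the outlier that the paper excluded, the zona genes did not go together as in the others. Its Zp2 level of 2258 CPM was below the old median of 3143 CPM, while its Zp1 and Zp3 levels were above those of every other oocyte. Astl, at 1230 CPM, was above the highest of the other old oocytes, at 1222 CPM. With this oocyte included, the ratio of Cd9 in old over young oocytes turned from -0.13 to 0.036 on the log2 scale.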
